A study of Homo sapiens with 9 samples.

Results

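The transcripts of 10 integrin subunits were followed in PLC/PRF/5, a human hepatoma cell line, by RNA sequencing of polyadenylated RNA with a strand-marking kit. The subunits were the 5 alpha chains ITGA2, ITGA3, ITGA5, ITGA6 and ITGAV and the 5 beta chains ITGB1, ITGB4, ITGB5, ITGB6 and ITGB8, taken by gene symbol from the 58219 genes counted. The rule uses no measured value, but these genes were chosen with earlier results of these data known. Stable lines of 2 kinds were compared: 4 samples expressed the wild-type form of YES, one of the Src family of tyrosine kinases, and 5 samples expressed YES T348I. T348I replaces the gatekeeper residue at the entrance of the kinase pocket. Every sample in both groups had received dasatinib, an inhibitor of Src family kinases, at 100 nM, and no sample without the drug was analysed here. The labels do not say whether each line was a single clone or a pool, nor whether samples came from separate cultures, so p-values cover the spread of the samples at hand and that spread may be technical. Sample titles spell the drug in full in 6 samples (3 of each form, the dasatinib set) and as Dasa in 3 samples (1 wild type and 2 T348I, the Dasa set), and the labels do not say what the spelling marks.

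Sense-strand reads in genes ranged from 10381142 to 15799059 per sample. Reads of the mitochondrial genome made up 7.38% to 9.44% of them in the dasatinib set and 15.2% to 17% in the Dasa set. YES1 itself, whose reads may come from the introduced or the cell's own gene, averaged 354 ± 13.2 CPM (sense-strand reads of a gene scaled to library size; SD, n = 4) in wild-type and 749 ± 233 (SD, n = 5) in T348I samples, a log2 fold change of 0.94 (edgeR, adjusted p = 4.84e-08). Several hepatocyte genes were high (APOB, FGA, FGB and SERPINA1 averaged 3175, 2367, 1691 and 1540 CPM in wild-type samples), whereas ALB and TTR, which define mature hepatocytes, averaged 3.95 and 0.226 CPM. Of 14 hepatocyte markers tested, 0 were called higher and 9 lower in T348I, against 20.7% and 21.8% of all genes tested. Their summed levels were 10173 to 12679 CPM in wild-type and 8194 to 11079 CPM in T348I samples. Of 6 biliary markers tested, 2 were called higher and 2 lower, with summed levels of 69.1 to 77.7 CPM and 87.7 to 105 CPM. Endothelial markers summed to 1.37 to 3.56 CPM in wild-type and 1.81 to 3.94 CPM in T348I samples, and fibroblast and stellate markers to 5.03 to 9.47 CPM and 5.34 to 10.7 CPM, with ACTA2 at 0. The part of these marker shifts in the integrin values was not tested, and in bulk RNA fewer cells of a type and less RNA per cell cannot be told apart.

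Integrins are cell-surface receptors made of 1 alpha and 1 beta chain, each crossing the membrane once, that hold cells to the extracellular matrix and signal through kinases such as FAK and the Src family. The alpha chain largely sets the ligand. ITGA2 with ITGB1 binds collagen, ITGA3 and ITGA6 with ITGB1 bind laminin, ITGA6 with ITGB4 binds laminin in hemidesmosomes, ITGA5 with ITGB1 binds fibronectin, and ITGAV with ITGB5, ITGB6 or ITGB8 binds ligands carrying the Arg-Gly-Asp motif, among them vitronectin and latent TGF-beta. Normal hepatocytes carry few of the laminin-binding integrins, and these are known to be gained in hepatocellular carcinoma.

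ITGA2 had the largest fold among the 8 subunits tested (values follow), and its promoter is shown for that reason. The stretch lies at chr5:52989102-52989351 on the plus strand of GRCh38.p14, is the 250 bases before the start of the gene in RefSeq, and its last bases fall in the first exon as GENCODE 29 places it. Capitals mark GGGCGG, the core of the binding motif of SP1, on either strand.
ITGA2 promoter: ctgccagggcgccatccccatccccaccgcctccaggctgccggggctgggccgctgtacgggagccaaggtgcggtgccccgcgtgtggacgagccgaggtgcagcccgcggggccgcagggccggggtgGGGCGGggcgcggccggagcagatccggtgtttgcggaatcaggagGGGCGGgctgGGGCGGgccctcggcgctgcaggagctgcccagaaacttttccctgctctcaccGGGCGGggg
GGGCGG occurred 4 times in this window, with first bases at -119, -73, -63 and -9 from the start, and in 42.6% of 35116 RefSeq promoter windows of the same length. RefSeq entries were found for 8 of the 10 subunits. The AP-1 motif TGANTCA occurred in 0 of these 8 windows, against 6.57% of all windows. GGGCGG also occurred in the windows of ITGA5, ITGA6, ITGB5 and ITGB8. GGAATG, the TEAD motif, was found for ITGA5 (11.9% of all windows), CCGGAA, an ETS motif, for ITGA6 (14.5%), TATAAA for ITGB1 (10.7%) and a CArG box, the site of serum response factor, for ITGB6 (1.16%), all motifs being searched on both strands. These matches are letters in a window and say nothing of binding in these cells.

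Of the 10 subunits, 8 had enough reads to be tested. ITGA2, ITGA3, ITGA6, ITGB1, ITGB4 and ITGB5 were called higher in T348I than in wild-type samples, 0 were called lower (also 0 at an unadjusted p of 0.05 and by DESeq2), and ITGA5 and ITGAV were not called (edgeR's quasi-likelihood test with a term for the set, Benjamini-Hochberg adjusted p up to 0.05 over 14617 genes). Of all genes tested, 20.7% were called higher and 21.8% lower. The median log2 fold change of the 8 subunits was 0.30, that of all genes tested -0.0077. For ITGA2, ITGA6, ITGB1 and ITGB5 every T348I sample lay above every wild-type sample, an order seen in 10.2% of all tested genes, and for 0 of the 8 every T348I sample lay below, an order seen in 9.41%. The number called higher was 3 when the set was left out of the model, with ITGA2, ITGA6 and ITGB4 still called.

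**Figure D1:**
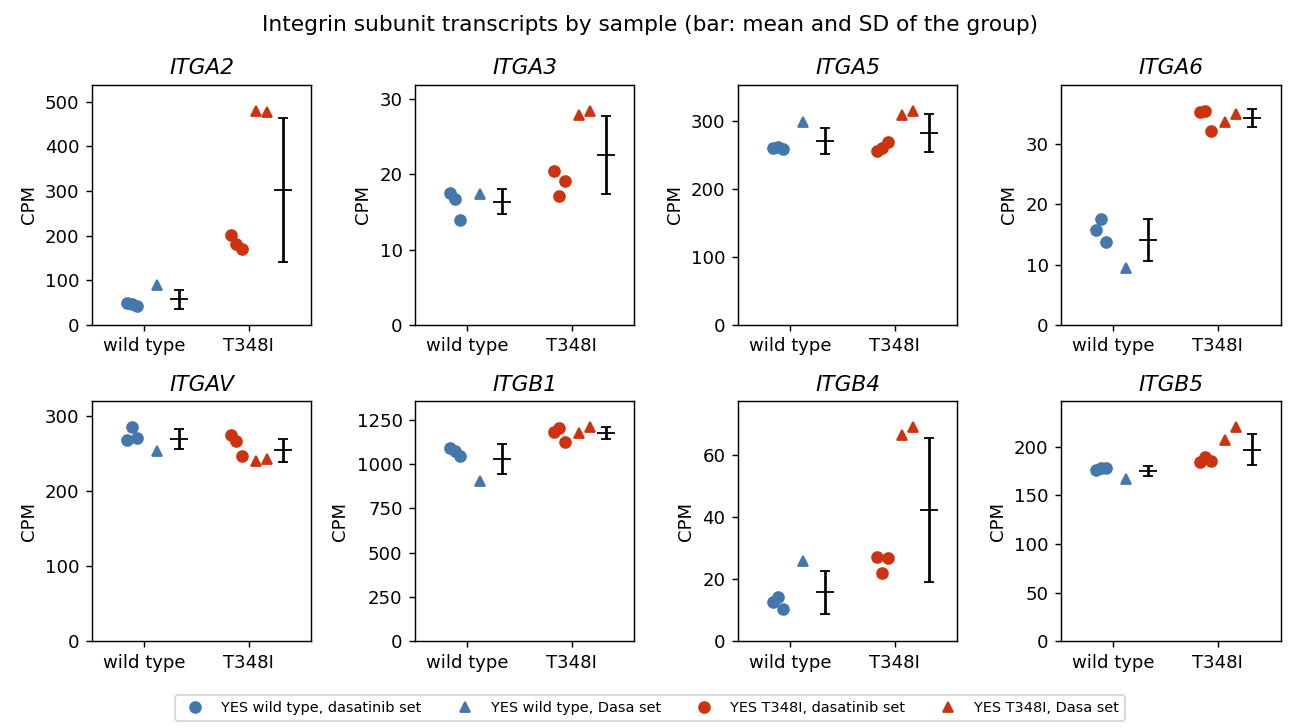
CPM (vertical axis, linear from 0) of the 8 tested subunits in each of the 9 samples, wild type in blue and T348I in red, circles for the dasatinib set and triangles for the Dasa set, with a bar for the mean and SD of each group. T348I samples of ITGA2 sit at 170 CPM or more and wild-type samples at 89 CPM or less, while the groups of ITGA5 and ITGAV overlap.

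The collagen receptor chain ITGA2 (chr5:52989326-53094779, plus strand, GRCh38) rose the most. Its level was 48, 47.4 and 42.2 CPM in the wild-type samples of the dasatinib set and 89 CPM in the wild-type Dasa sample. The T348I samples of the dasatinib set read 202, 181 and 170 CPM, and those of the Dasa set 480 and 477 CPM. Every T348I sample was well above the highest wild-type sample, and both forms were higher in the Dasa set. The group means were 56.6 ± 21.7 CPM (SD, n = 4) and 302 ± 161 CPM (SD, n = 5), and the fold change was 4.45 (log2 2.15, SE 0.0698, edgeR adjusted p = 5.83e-15), the 134th highest log2 fold of the 14617 genes tested. Within the sets the fold was 4.03 (dasatinib) and 5.38 (Dasa).

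ITGB1 (chr10:32900319-33005792, minus strand), the beta chain that pairs with ITGA2, ITGA3, ITGA5 and ITGA6 among these genes, rose slightly. It read 1094, 1076 and 1048 CPM in the wild-type dasatinib set and 905 CPM in the wild-type Dasa sample, against 1179, 1205 and 1124 CPM and 1174 and 1209 CPM in T348I. The T348I samples were close to each other, all above the wild-type samples, and the wild-type Dasa sample was the lowest of the 9. The means were 1031 ± 85.8 CPM (SD, n = 4) and 1178 ± 33.9 CPM (SD, n = 5), a 1.15-fold difference (log2 0.21, SE 0.0486, edgeR adjusted p = 0.00193). Without the wild-type Dasa sample the log2 value was 0.13 (edgeR adjusted p = 0.00373).

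Among the laminin receptor chains, ITGA6 (chr2:172427354-172506282, plus strand) showed the tightest separation. Wild-type samples read 15.8, 17.5 and 13.7 CPM (dasatinib set) and 9.47 CPM (Dasa set), and T348I samples read 35.4, 35.6 and 32.2 CPM and 33.7 and 35 CPM. The 5 T348I samples were alike in both sets, and the wild-type Dasa sample was again the lowest. ITGA6 rose 2.51-fold between means of 14.1 ± 3.48 (SD, n = 4) and 34.4 ± 1.42 CPM (SD, n = 5), with log2 1.33, SE 0.0977 and edgeR adjusted p = 1.95e-09.

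ITGB4 (chr17:75721328-75757818, plus strand), the beta chain that anchors keratin filaments through its long cytoplasmic tail, rose 2.27-fold. It read 12.5, 14.2 and 10.4 CPM in the wild-type dasatinib set and 25.7 CPM in the wild-type Dasa sample, against 27.2, 22 and 26.9 CPM and 66.2 and 68.8 CPM in T348I. The groups overlapped over all 9 samples, since the wild-type Dasa sample exceeded the second T348I dasatinib sample, but they did not overlap within either set. The means were 15.7 ± 6.84 CPM (SD, n = 4) and 42.3 ± 23.2 CPM (SD, n = 5), with log2 1.19, SE 0.088 and edgeR adjusted p = 2.18e-09.

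ITGA3 (chr17:50055968-50090481, plus strand), which with ITGB1 binds laminins of the epithelial basement membrane, rose by a smaller amount. Wild-type samples read 17.6, 16.7 and 13.9 CPM (dasatinib set) and 17.4 CPM (Dasa set), and T348I samples read 20.4, 17.1 and 19.1 CPM and 27.9 and 28.5 CPM. The groups overlapped in the dasatinib set and were apart in the Dasa set. The log2 fold change was 0.39 (SE 0.0925, edgeR adjusted p = 0.00225), the means being 16.4 ± 1.71 (SD, n = 4) and 22.6 ± 5.27 CPM (SD, n = 5). It was 0.23 without the wild-type Dasa sample (edgeR adjusted p = 0.0442), and without the set term it was 0.47 and no longer called (edgeR adjusted p = 0.0815).

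The fibronectin receptor chain ITGA5 (chr12:54395261-54419460, minus strand) was not called. It read 261, 263, 260 and 299 CPM in wild-type samples and 257, 261, 269, 309 and 316 CPM in T348I samples, the last wild-type value and the last 2 T348I values being the Dasa set. The higher values were those of the Dasa set in both forms, and the groups overlapped. The log2 fold change was 0.024, with a 95% interval of -0.047 to 0.095 (edgeR adjusted p = 0.601).

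ITGAV (chr2:186590065-186680901, plus strand), the alpha chain of the Arg-Gly-Asp-binding receptors that activate latent TGF-beta, was not called either. Wild-type samples read 268, 285, 271 and 253 CPM and T348I samples 274, 266, 247, 240 and 243 CPM, in the same order of sets. These groups overlapped in the dasatinib set, and in the Dasa set both T348I samples were just below the wild-type one. The log2 fold change was -0.066, with a 95% interval of -0.14 to 0.013 (edgeR adjusted p = 0.175).

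ITGB5 (chr3:124761948-124901418, minus strand), which pairs with ITGAV to bind vitronectin, had the smallest difference that was called. It read 176, 178, 178 and 167 CPM in wild-type samples and 184, 189, 185, 207 and 220 CPM in T348I samples. The groups did not overlap, and the distance between them was widest in the Dasa set. The log2 fold change was 0.16 (SE 0.0453, edgeR adjusted p = 0.0091), the means being 175 ± 5.07 (SD, n = 4) and 197 ± 15.6 CPM (SD, n = 5). The call was lost without the wild-type Dasa sample (log2 0.077, edgeR adjusted p = 0.102), in the dasatinib set alone (log2 0.077, edgeR adjusted p = 0.0945) and without the set term (log2 0.17, edgeR adjusted p = 0.109).

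ITGB6 and ITGB8, the other partners of ITGAV in activating latent TGF-beta, were near 0 and were not tested. ITGB6 had 2 reads over the 4 wild-type samples and 8 reads over the 5 T348I samples, a ratio of 3.27 after scaling to library size with a 95% counting interval of 0.653 to 31.6. ITGB8 (chr7:20330702-20415754, plus strand) had 0 reads in the wild-type group, which allows up to 0.0561 CPM over the group (3 reads), and 1 read in the T348I group. Intervals and limits of this kind cover counting error only. In GENCODE 29, ITGB6 shares 966 of its 4687 joined exon bases with another gene on the same strand, where reads may go uncounted.

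**Figure D2:**
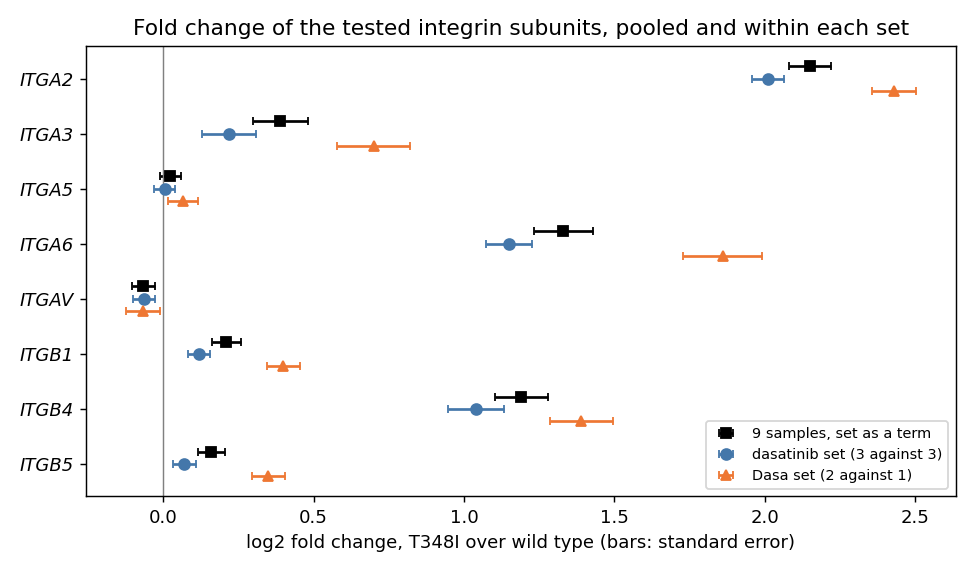
Log2 fold change of T348I over wild type (horizontal axis) with its standard error for the 8 tested subunits, from all 9 samples with set as a term (black), within the dasatinib set (blue, 3 against 3) and within the Dasa set (orange, 2 against 1). ITGA2, ITGA6 and ITGB4 lie above 1 in each fit, and ITGA5 and ITGAV lie close to 0 in each.

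The T348I fold was larger in the Dasa set than in the dasatinib set for 5 of the 8 subunits tested, by edgeR's interaction test with adjustment over all genes, which called 7.33% of all genes in either direction. The log2 fold went from 2.01 in the dasatinib set to 2.43 in the Dasa set for ITGA2 (difference 0.42, edgeR adjusted p = 0.00237). For ITGA6 it went from 1.15 to 1.86 (difference 0.71, edgeR adjusted p = 0.00401). For ITGB1 it went from 0.12 to 0.40 and for ITGB5 from 0.071 to 0.35 (differences 0.27 and 0.28, edgeR adjusted p = 0.00584 and 0.00526). These Dasa values rest on 1 wild-type sample, which is assumed to vary like the others. The ITGA3 difference of 0.48 (edgeR adjusted p = 0.0466) was not called by DESeq2 (adjusted p = 0.232) nor after leaving out any 1 of 6 of the other 8 samples, and 3 subunits (ITGA2, ITGA6 and ITGB1) were called without the second T348I Dasa sample. The ITGB4 difference was 0.36 (edgeR adjusted p = 0.14), that of ITGA5 0.061 with a 95% interval of -0.064 to 0.19, and that of ITGAV -0.0024 with an interval of -0.14 to 0.14. The fold of YES1 itself differed between the sets as well, with log2 0.73 in the dasatinib set and 1.45 in the Dasa set (edgeR interaction adjusted p = 2.3e-09). The part of the YES1 level and of the mitochondrial share in these differences was not tested.

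Levels were compared between genes per kilobase of exon (CPM per kb, all exons of the gene in GENCODE 29 joined). ITGB1 was the most abundant integrin chain, with a mean of 185 ± 16.1 CPM per kb over the 9 samples. ITGA5 (36.6 ± 3.13), ITGAV (31.8 ± 1.9), ITGB5 (29 ± 2.54) and ITGA2 (24.4 ± 21.9 CPM per kb) followed, each overlapping its neighbour in range, and ITGAV and ITGB5 changed places when the longest transcript gave the length. ITGB4 (4.5 ± 3.25), ITGA6 (3.88 ± 1.67) and ITGA3 (2.02 ± 0.518 CPM per kb) were lower, again with overlapping ranges, and ITGB6 (0.0193) and ITGB8 (0.000631 CPM per kb) were lowest of the 10.

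By joined exon length, the rank of ITGA2 among the alpha chains differed between the groups. It averaged 7.16 ± 2.75 CPM per kb (SD, n = 4) in wild-type samples, well below ITGA5 at 35.7 ± 2.46 CPM per kb, and 38.2 ± 20.4 CPM per kb (SD, n = 5) in T348I samples beside ITGA5 at 37.3 ± 3.71 CPM per kb. As a share of the summed CPM per kb of all integrin alpha chains, ITGA2 made up 6.77%, 6.56%, 6.1% and 11.5% in wild-type samples, and 22.9%, 21.2%, 20.4%, 40.6% and 40.1% in T348I samples. In the T348I Dasa samples it was the alpha chain with the largest share, whereas ITGA5 or ITGAV held that place in the other 7. This order and the group means above rest on the joined exon length, 7577 bases for ITGA5 and 7910 for ITGA2. Their longest transcripts have 4996 and 7869 bases, which raises ITGA5 relative to ITGA2. By that length the means over the 9 samples were 55.5 CPM per kb for ITGA5 and 24.5 for ITGA2. The T348I Dasa samples read 480 and 477 CPM for ITGA2 and 309 and 316 CPM for ITGA5. Divided by the longest transcript, ITGA5 came out slightly above ITGA2 in each of them, so the lead of ITGA2 did not hold. Shares by that length were not computed. The share of ITGA5 was 39% ± 0.966 in wild-type and 30.2% ± 2.71 in T348I samples, and that of ITGAV 35.9% ± 3.04 and 25.5% ± 5.41, although neither gene's level was called. Shares add to a whole, so a larger share of ITGA2 leaves smaller shares for the rest.

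**Figure D3:**
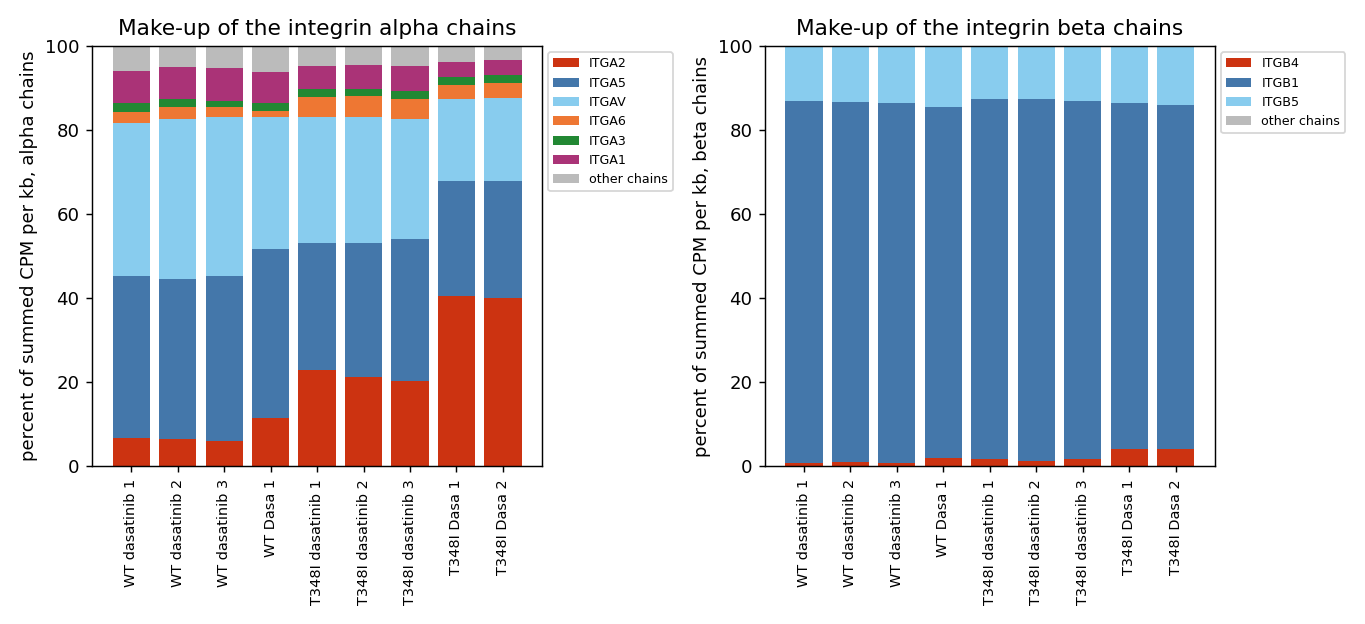
Stacked bars (vertical axis, percent of the summed CPM per kb) of the alpha chains at left and the beta chains at right in each of the 9 samples. The ITGA2 segment is 6.1% to 11.5% in wild-type bars and 20.4% to 40.6% in T348I bars, and ITGB1 fills 81.8% to 86% of the beta bar in every sample.

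The beta side was dominated by ITGB1, with 85.1% ± 1.2 (SD, n = 4) of the summed beta chains in wild-type and 84.1% ± 1.94 (SD, n = 5) in T348I samples. ITGB5 made up 13.5% ± 0.632 and 13.1% ± 0.593, and ITGB4 1.18% ± 0.621 and 2.65% ± 1.37. ITGA2 per ITGB1, as a ratio of CPM per kb, was 0.0306 to 0.0747 in wild-type and 0.114 to 0.311 in T348I samples, so ITGB1 transcripts exceeded those of ITGA2 in every sample. ITGA6 per ITGB4 followed the set more than the form: it was 1.28 to 1.36 in wild-type and 1.24 to 1.67 in T348I samples of the dasatinib set, and 0.382 in the wild-type and 0.526 and 0.527 in the T348I samples of the Dasa set. ITGAV per ITGB5 was 1.19 to 1.25 in wild-type and 0.869 to 1.17 in T348I samples. These ratios are descriptions of transcripts and were not tested.

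Of the other 16 integrin chains, 10 were tested and had a median log2 fold change of -0.059. Among these 10, 1 was called higher and 3 lower, against 20.7% and 21.8% of all genes tested. ITGA10, another collagen-binding alpha chain, rose from a wild-type mean of 0.894 ± 0.254 (SD, n = 4) to 3.85 ± 1.65 CPM in T348I (SD, n = 5), with log2 1.94 and edgeR adjusted p = 2.89e-06. ITGA1, the collagen and laminin receptor chain typical of liver, fell from 130 ± 3.7 to 109 ± 10.7 CPM (log2 -0.24, edgeR adjusted p = 0.000592). Every T348I sample of ITGA1 lay below every wild-type sample, and the log2 value was -0.13 without the wild-type Dasa sample. ITGA7, a laminin receptor chain of muscle (log2 -0.35, edgeR adjusted p = 0.0498), and ITGAL, the alpha chain of the leukocyte receptor LFA-1 (log2 -0.34, edgeR adjusted p = 0.0492), were just past the threshold. Without the wild-type Dasa sample they were -0.099 and -0.16 and no longer called. The leukocyte genes PTPRC, CD3E, CD14 and CD68 were near 0 in these cells, although LYZ averaged 1155 CPM in wild-type and 1140 CPM in T348I samples. ITGA2B, ITGA4, ITGA11, ITGAE and ITGB7, each averaging at least 1 CPM over the 9 samples, were not called, with log2 values of -0.005, 0.37, -0.11, 0.073 and 0.15.

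Proteins that bind integrin tails or switch integrins to the active state gave calls in both directions, with 5 of 22 tested called higher, 6 lower and a median log2 fold change of -0.0014. Those shares are near the 20.7% and 21.8% of all genes tested, so the counts set nothing apart in this list. The same shares of all genes stand beside the counts of the lists that follow. FERMT1, the kindlin of epithelial cells, which activates beta chains together with talin, rose from a wild-type mean of 4.72 ± 0.36 (SD, n = 4) to 57.1 ± 22 CPM in T348I (SD, n = 5), with log2 3.44 and edgeR adjusted p = 5.19e-15. TNS4, a tensin that binds the ITGB1 tail, rose from 0.292 ± 0.0747 (SD, n = 4) to 4.83 ± 2.45 CPM (SD, n = 5), with log2 3.75, SE 0.254 and edgeR adjusted p = 5.44e-10. Its wild-type level was near 0 and rested on 16 reads over the 4 samples. FLNA, the actin crosslinker that binds beta tails in the resting state, rose from 662 to 1134 CPM (log2 0.67, edgeR adjusted p = 3.81e-09). RASGRP2, an exchange factor for RAP1, had a log2 value of 0.57 (edgeR adjusted p = 0.000995), which was not called without the set term. TLN1, the main talin, which the rule for naming genes did not pick, averaged 568 and 576 CPM and was not called.

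Matrix ligands were read beside their receptors. Of 7 laminin chains tested, 3 were called higher and 2 lower, with a median log2 fold change of -0.059. LAMB3, a chain of epithelial laminin, rose from 6.02 ± 1.98 CPM (SD, n = 4) to 17.9 ± 3.74 CPM in T348I (SD, n = 5), with log2 1.48 and edgeR adjusted p = 2.02e-10. LAMA3, an alpha chain bound by ITGA3 and ITGA6 receptors, averaged 19.3 and 19.2 CPM and was not called (log2 -0.059). LAMA5, the alpha chain of the most widespread adult laminins, fell (log2 -0.32, edgeR adjusted p = 9.08e-06), and LAMB1 and LAMC1, which form the trimers of many tissues, rose (log2 0.26 and 0.25, edgeR adjusted p = 1.09e-05 and 1.76e-05). These 3 calls were lost without the set term, where LAMA5 was at -0.17.

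Collagens, the ligands of ITGA2, were low. Of 12 chains 5 were tested, with 2 called higher, 1 lower and a median of -0.10 on the log2 scale, and their summed level was 42 to 49.7 CPM in wild-type and 44.1 to 49.3 CPM in T348I samples. COL1A1 rose from 3.72 to 5.91 CPM (log2 0.52, edgeR adjusted p = 0.00485), COL6A2 rose (log2 0.31) and COL6A1 fell (log2 -0.28), with edgeR adjusted p = 0.00839 and 0.00854. None of these 3 calls held without the set term, and COL6A1 was -0.18 and not called without the wild-type Dasa sample. COL5A2 was not called (log2 -0.13).

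Of 9 tested genes in a list of fibronectin and other matrix ligands, 5 were called higher and 1 lower, against 20.7% and 21.8% of all genes tested. Their median log2 fold change was 0.28. CCN1, a matricellular ligand of ITGAV and ITGA6 receptors, rose from a wild-type mean of 18.4 ± 2.76 (SD, n = 4) to 158 ± 61.3 CPM in T348I (SD, n = 5), with log2 2.94 and edgeR adjusted p = 5.83e-15. CCN2, its close relative, rose (log2 1.16, edgeR adjusted p = 6.91e-12), as did THBS1, thrombospondin 1 (log2 1.22, edgeR adjusted p = 2.02e-07). NPNT, nephronectin, a ligand of the ITGA8 receptor, fell from 35.9 to 22.1 CPM (log2 -0.72, edgeR adjusted p = 5.37e-08), while ITGA8 itself was near 0. FN1, fibronectin, the ligand of ITGA5, was named after its values were seen: over all 9 samples it rose from 383 to 476 CPM (log2 0.28, edgeR adjusted p = 0.000649). The FN1 fold differed between the sets (edgeR interaction adjusted p = 0.000331), with log2 0.40 in the dasatinib set and 0.021, with overlapping samples, in the Dasa set.

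Of 7 tested genes in a list of TGF-beta and LTBP family genes, 2 were called higher and 3 lower, with a median log2 fold change of 0.055. TGFB1, whose propeptide carries the Arg-Gly-Asp motif, rose from 80.4 to 110 CPM (log2 0.47, edgeR adjusted p = 1.23e-07). LTBP1, which tethers the latent complex to the matrix, fell from 94.6 to 58.7 CPM (log2 -0.61, edgeR adjusted p = 1.52e-09), and LTBP2 rose from 2.17 to 4.91 CPM (log2 1.03, edgeR adjusted p = 8.48e-05). LTBP3 had a log2 value of -0.14 (edgeR adjusted p = 0.0221), which was -0.039 and not called without the wild-type Dasa sample.

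Among tetraspanins and other lateral partners of integrins, 5 of 12 tested were called higher and 3 lower, with a median log2 fold change of 0.029. PLAUR, the urokinase receptor, which lies beside ITGB1 and ITGAV receptors, rose from a wild-type mean of 5.54 ± 0.681 (SD, n = 4) to 33.8 ± 15.4 CPM in T348I (SD, n = 5), with log2 2.41 and edgeR adjusted p = 1.43e-12. CD9, a tetraspanin partner of ITGA3 and ITGA6 receptors, rose from 6.02 to 18.2 CPM (log2 1.65, edgeR adjusted p = 2.52e-10), and TM4SF1 rose from 681 to 1103 CPM (log2 0.76, edgeR adjusted p = 1.69e-08). TSPAN8 fell (log2 -0.63, edgeR adjusted p = 0.000105), and its log2 value was -0.40 without the wild-type Dasa sample. Of 5 tested hemidesmosome partners of ITGB4, 2 were called higher, 0 lower (also 0 at an unadjusted p of 0.05), and the median was 0.0078. These 2 were LAMB3, given above, and PLEC, the plakin that links ITGB4 to keratin (log2 0.35, edgeR adjusted p = 1.8e-07), whose call was lost without the set term. DST, the other plakin of hemidesmosomes, was not called (log2 -0.067).

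The genes whose log2 CPM followed ITGA2 most closely over the 9 samples were EML2 (Pearson r = 0.9989), AKAP12 (0.9987), ETS2 (0.9976), LUCAT1 (0.9966) and ODC1 (0.9966). Their own log2 fold changes were 0.72, 2.19, 0.98, 2.57 and 0.83. These coefficients are descriptions: the 9 points share 2 forms of YES and 2 sets, both of which ITGA2 follows.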

How the data were processed

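Stranded polyadenylated RNA libraries of 9 samples were analysed from raw read counts per gene, which the authors deposited as 1 file per sample. Per the submitters' processing notes, CASAVA 1.8.2, Trimmomatic 0.35 and STAR 2.5.1b were used with GRCh38; the annotation release is not given in the sources used here. The sense-strand count column was used. Reads assigned to no gene, for any reason, were 22.2% to 29.8% and stayed out of library sizes. Opposite-strand reads were 0.123% to 2.27% of sense reads for the tested subunits. Symbols were given to 57437 of 58219 gene identifiers. Lengths and coordinates come from GENCODE 29 and promoters from RefSeq (GRCh38.p14).

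Low counts were removed by filterByExpr, libraries were scaled with TMM factors, and edgeR 4.0.16 gave the tests (quasi-likelihood F-test, terms for set and YES form, threshold 0.05 after Benjamini-Hochberg adjustment) under R 4.3.3. The procedure was also run on simulated counts, which held no difference between the sets and so do not bear on the set term. Alternatives were other scalings and filters, DESeq2 1.42.0, unstranded counts, no set term, the dasatinib set alone, a replicate block and leaving out each sample. The subunits and gene lists were chosen with earlier results of these data known. Named beside the 10 subunits are other integrin chains with at least 1 CPM on average, the 4 tested genes of smallest p in each list of ligands, partners and tail-binding proteins, and the 5 genes most correlated with ITGA2. A few genes of the lists are not reported here and were left out of the list counts.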

Additional observations from a re-analysis of the deposited data

Results flagged for a closer look

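In the 4 wild-type samples, the Dasa sample stood far from the other 3 for several genes, measured on log2 CPM as its gap to the nearest other sample divided by the range of the group, against Dixon's 95% critical value. Among the subunits this held for ITGA5, where it was highest (0.906). ITGA2 fell just short on that scale (0.827) and passed on the CPM scale (0.876, the Dasa sample highest). Among the other genes named it was highest for FLNA (0.906), RASGRP2 (0.903), LAMA5 (0.985), LAMB1 (0.961), LAMC1 (0.838), COL1A1 (0.91), LTBP3 (0.944), PLEC (0.951), DST (0.931), FN1 (0.829), AKAP12 (0.906) and ODC1 (0.902), and lowest for ITGA11 (0.831) and TM4SF1 (0.932). That critical value marks about 1 in 20 groups of like samples by chance, but these 4 samples are 3 of one set and 1 of the other. All 15 genes past it on the log2 scale mark the same sample, the lone Dasa-titled library of wild-type YES. A difference between the sets in both forms would mark that sample as well. For LAMA5, for example, the set term had a log2 value of 1.17 (Dasa over dasatinib set, adjusted for YES form). The share of all tested genes past the critical value was not computed.

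The T348I fold differed between the sets for 5 subunits by edgeR's interaction test, with log2 differences (Dasa minus dasatinib set) of 0.42 for ITGA2, 0.48 for ITGA3, 0.71 for ITGA6, 0.27 for ITGB1 and 0.28 for ITGB5. For YES1 itself the difference was 0.71. Among the other genes named whose folds are given, it was called positive for FERMT1 (0.91), FLNA (0.34), CCN1 (0.62), CCN2 (0.42), PLAUR (0.84), TM4SF1 (0.50), AKAP12 (0.51) and ETS2 (0.31), and negative for ITGA1 (-0.33), LAMA5 (-0.25), LAMA3 (-0.56), LTBP3 (-0.29), FN1 (-0.38) and TSPAN8 (-0.67). Each rests on 1 wild-type Dasa sample, and the cause was not tested.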

How the results depend on the processing

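Of 144 values of the 8 tested subunits under the alternatives, 139 kept their direction and their side of the threshold, and 5 kept their direction but lost the call (ITGA3, ITGB1 and ITGB5 without the set term, ITGB5 in the dasatinib set alone and without the wild-type Dasa sample). Without the set term, 3 subunits were called higher in place of 6, and 2350 genes were called in place of 6212. Leaving out each sample in turn gave 5 to 6 subunits called higher and 5131 to 5925 genes called. With a replicate block, 6 subunits and 5372 genes were called. Same-numbered samples of the dasatinib set did not deviate together (r of -0.0077, -0.076 and 0.0033), so the values gave no sign of pairing by number. The number of subunits whose fold differed between sets was 5, and 3 to 6 over the samples left out. Subunits called lower stayed at 0 under each alternative run.

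Directions turned for 5 genes that were not called. ITGA2B was 0.011 by DESeq2, 0.14 in the dasatinib set alone, 0.13 with the block and -0.15 to 0.14 over the samples left out. ITGA4 was -0.045 to 0.54 over the samples left out. ITGB7 was -0.11 with the block and -0.087 to 0.35 over the samples left out. LAMA3 was 0.15 in the dasatinib set alone, 0.0012 with the block and -0.14 to 0.15 over the samples left out. DST was 0.027 without the set term. The causes were not tested.

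The alternatives for gene lists were chosen after seeing the data. Without the set term, genes called higher and lower were 3 and 0 for tail-binding proteins, 1 and 0 for laminins, 1 and 0 for hemidesmosome partners, 0 and 0 for collagens, and 3 and 1 for tetraspanins and lateral partners, and 1 latent TGF-beta gene was lower. Other integrin chains called lower were 1 in place of 3 under RLE scaling, DESeq2, no set term, the dasatinib set alone, the block and 6 of 9 samples left out, and 2 were higher with no filter. Latent TGF-beta genes called lower were 1 under DESeq2, the dasatinib set alone, the block and without any 1 of the 3 Dasa samples. The depth limits ITGB6 and ITGB8, with 10 reads or fewer over all samples.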
